A study of Danio rerio with 8 samples.

Results

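Genes that bring new proteins into the endoplasmic reticulum (ER) and carry them on to the Golgi were examined in ribosome footprints of zebrafish embryos at 4 hours post fertilization (hpf). The genes were chosen by symbol, ignoring case: names starting with SEC, SSR, SRP, TMED or ARF followed by a digit, or with SPCS or SAR1, together with 7 COPI subunit names and RPN1, RPN2 and DDOST. A table of gene names gave such a symbol to 73 identifiers, and 56 of these were among the 33633 identifiers used. The other 17, among them SRP54, SRP14, SSR1, sec23a, SEC24A, sec24c and sar1b, were not analysed here. Of the 56, 42 reached the minimum level for a ratio (a mean of at least 1 scaled FPKM over the groups) and 14 did not. Symbols are written as that table gives them, in capitals for many of these zebrafish genes.

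Proteins destined for secretion or for membranes are recognised on the ribosome by the signal recognition particle (SRP), which docks them at the SEC61 channel of the ER. There signal peptidase cuts off the signal sequence, oligosaccharyltransferase attaches sugar chains, and the translocon-associated protein complex (TRAP, encoded by the SSR genes) assists the passage of some of them. COPII-coated vesicles then carry cargo from the ER to the Golgi, COPI-coated vesicles return proteins to the ER under control of ARF GTPases, and TMED proteins, also called p24 proteins, travel in both kinds of vesicle as cargo receptors. In the blastula this machinery makes the membrane proteins and secreted signals that the embryo needs as it switches on its own genome.

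The 8 samples formed 4 groups of 2, all whole embryos at 4 hpf: wild type (WT), the genotype labelled Ddx3xb-/Ddx3xb- (KO), and embryos of that same mutant genotype injected with ddx3xbFL (KO_FL) or with ddx3xb△N (KO_dN). The gene ddx3xb codes for an RNA helicase of the DEAD-box class whose relatives help ribosomes start on mRNAs. No mutant embryos injected with a control are among the samples, so injection and construct cannot be told apart, and the sources used here do not give the dose and extent of the constructs or the position of the mutation. The injected groups carry a separate run of sample numbers from WT and KO. The sample titles do not say whether all groups were processed together. Each group had 1 deposited value per gene, which the authors made from its replicates together. The values therefore carry no replicate error, and no difference was tested.

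The deposited unit is FPKM, fragments mapped to a gene, corrected for transcript length and library size. It summed over all identifiers to 2050290 in WT but only 364061 in KO, 395754 in KO_FL and 190693 in KO_dN, so most WT values were the higher ones. FPKM was therefore also divided by 1 factor per group, the median ratio to the geometric mean of the groups, taken over the 3177 genes that reached 1 FPKM in each: 3.40 in WT and 0.73, 0.90 and 0.45 in KO, KO_FL and KO_dN. The number of reads is unknown. Repeated ratios among the lowest values, each read as the worth of a single read, placed the WT libraries at 34.4% and 27.4% of the deepest library, and the other 6 between 57.2% and 100%. Between mutant groups, only 15.4 to 15.7% of the genes with such low values lay on the ratios used. The WT depths came from a separate best match to the other libraries, so the estimate is rough. Reads behind a value go with depth times FPKM, so by this estimate a gene at the same scaled level rested on most reads in WT, and on 51.6% of the WT number in KO, 71.6% in KO_FL and 31.3% in KO_dN. The targeted gene, ddx3xb, stood at 129 FPKM in WT, against 14.7 in KO, 76.7 in KO_FL and 126 in KO_dN. After scaling these were 37.9, 20.1, 85.0 and 283, so KO was lowest and both injected groups were above WT.

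Secretory genes were well represented in the footprints. In WT 48 of the 56 reached 1 FPKM as deposited (85.7%, against 32.4% of all identifiers). In KO 36 did (64.3%, against 14.6%), in KO_FL 41 (73.2%, against 16.4%) and in KO_dN 31 (55.4%, against 10.3%). This cut was set before scaling, and the share of all identifiers was also lower in the mutant groups. Only 21939 of 33737 identifiers had a symbol, whereas these genes were chosen by symbol, so the shares rest on unlike sets. Among the 42 genes with a ratio, the median level was 12.9 FPKM in WT, against 2.95 in KO, 3.80 in KO_FL and 1.70 in KO_dN, or 3.81, 4.04, 4.21 and 3.81 in scaled FPKM. The medians of all 6356 genes at the same minimum were 3.11, 2.56, 2.53 and 2.47 scaled FPKM, so the typical secretory gene lay somewhat above the typical gene in each group.

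A few genes carried much of the signal, and their shares differed between WT and the other groups. SEC62 held 21.2% of the summed FPKM of the 42 genes in WT, followed by SRP68 with 13.3% and SPCS2 with 8.54%. SEC62 still held 8.79% in KO, 6.59% in KO_FL and 5.26% in KO_dN. SEC61B held 12.6% of the sum in KO, 14.4% in KO_FL and 11.8% in KO_dN, against 2.00% in WT, and TMED2 held 9.34%, 13.1% and 10.9%, against 5.09% in WT. By role, the SRP genes made up 19.9% of the sum in WT and 4.25 to 5.29% in the other groups, while the TMED genes made up 10.2% in WT and 27.3% in KO, 23.1% in KO_FL and 31.7% in KO_dN. These shares are taken inside 1 group and do not depend on the scaling.

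**Figure D1:**
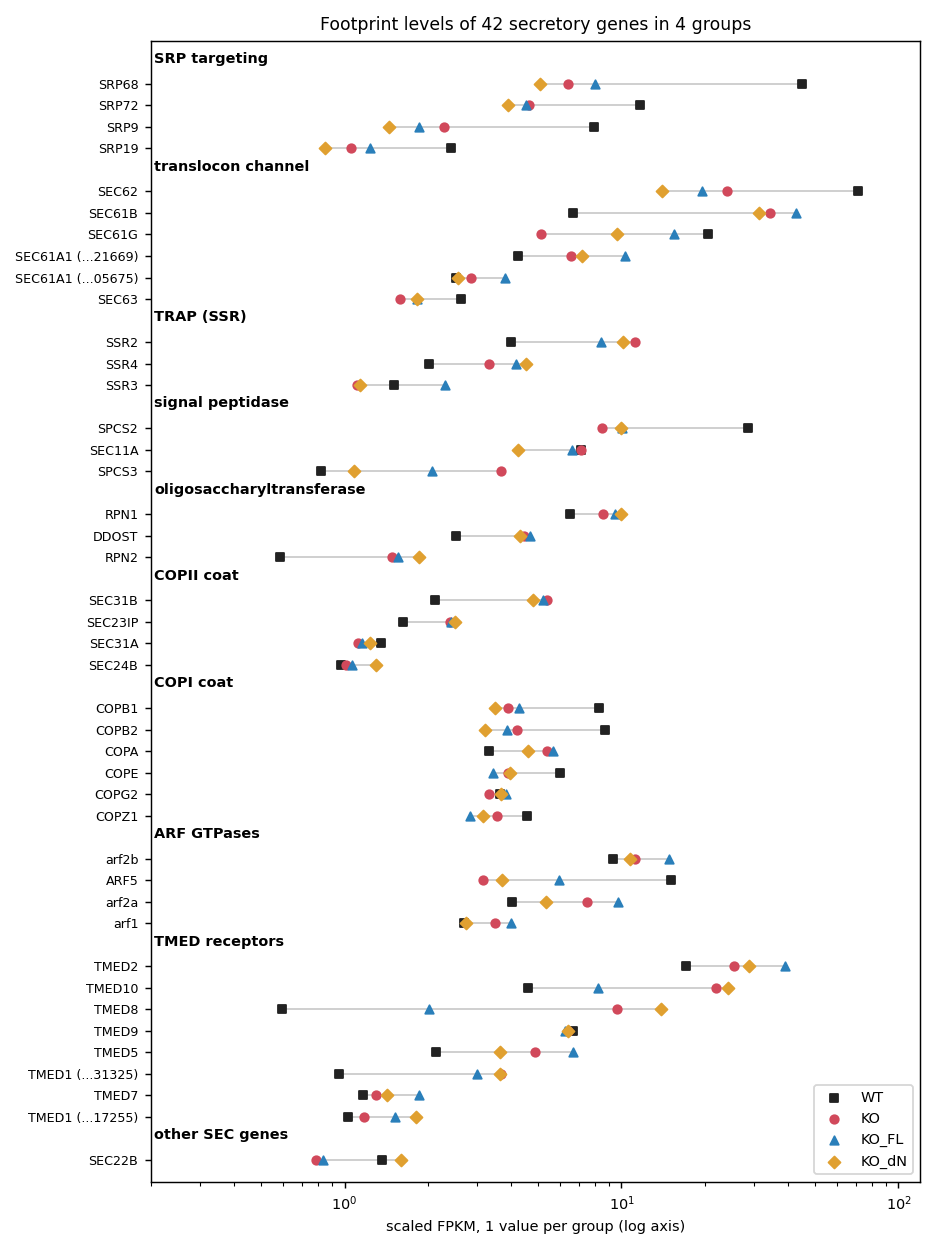
Scaled FPKM of the 42 genes (horizontal log axis), 1 marker per group (square WT, circle KO, triangle KO_FL, diamond KO_dN), arranged by role and, within a role, by mean level; a grey line joins the lowest and highest group, and digits in brackets end the identifier where 2 genes share a symbol. WT stands apart from the other 3 groups for SRP68 and SEC61B, while TMED10 and TMED8 have WT and KO_FL low and KO and KO_dN high.

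Differences between groups are given as relative log2 ratios, log2((a + 1)/(b + 1)) of scaled FPKM minus the median of all 6356 genes, and a gene is counted as higher or lower from a 1.5-fold difference on that scale. Of the 168 ratios of secretory genes, 35 changed sign under another scaling or centring, and none of those was larger than 0.28 in size. The pseudocount of 1 understates differences of weakly expressed genes. The medians that were subtracted were -0.19 for KO/WT, 0 for KO_FL/KO, -0.03 for KO_dN/KO and 0.03 for KO_FL/KO_dN.

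KO was set against WT to see how secretory footprints stood in ddx3xb mutant embryos. Of the 42 genes, 15 were higher and 9 lower in KO, that is 35.7% and 21.4%, where 26.4% and 27% of all 6356 genes were. Their median relative ratio was 0.29, where that of all genes is 0 by construction, and it was -0.43 for the 8 of them with a mean of at least 10. Of the 15 higher genes, 5 were TMED genes, 2 belonged to TRAP and 2 to oligosaccharyltransferase, roles with no lower gene. Among the 15, TMED8, TMED1 (ENSDARG00000031325), RPN2 and SPCS3 were below 1 scaled FPKM in WT and passed the minimum through the mutant groups. SPCS1, with 1.89 scaled FPKM in WT and 0.37 in KO, did not pass. A minimum set on the mean of WT and the mutant groups favours genes high in the latter. Of the 9 lower genes, 3 were SRP subunits, a role with no higher gene. The translocon channel (2 higher, 2 lower), signal peptidase (1 and 1), COPI (1 and 2) and the ARF genes (1 and 1) held both. Footprints combine the amount of an mRNA with its ribosome load, and fewer cells of a type and less RNA per cell cannot be told apart in whole embryos.

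WT took an outer position for most of these genes. It had the lowest scaled value of the 4 groups for 23 of the 42 genes and the highest for 15. Over all 6356 genes WT was lowest for 30.6% and highest for 47.8%, against 54.8% and 35.7% of the secretory genes. With values as TPM instead, which sum to the same total in every group, the shares with WT lowest were 59.6% of 47 secretory genes and 41.2% of all genes. They were 49.1% and 17% with no minimum level, and 55.8% and 34.6% with the minimum applied to the mutant groups alone. At a minimum of 10, WT was lowest for 4 and highest for 4 of 8 secretory genes. These were 50% each, where 38% and 41.4% of all genes were.

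The comparisons within the mutant genotype gave smaller differences. In KO_FL against KO, 4 genes were higher (SEC61G, ARF5, SSR3 and TMED2) and 3 lower (TMED8, TMED10 and SPCS3), or 9.52% and 7.14%, where 11.6% and 9.64% of all genes were; the split was 5 and 2 with deposited values centred on their median and 5 and 5 with TPM. In KO_dN against KO, 1 was higher (SEC61G) and 3 lower (SPCS3, SEC62 and SEC11A), where 7.99% and 6.51% of all genes were, and those splits were 0 and 3 and 3 and 4. In KO_FL against KO_dN, 4 were higher (arf2a, TMED5, SSR3 and SEC61G) and 2 lower (TMED8 and TMED10), where 12% and 11.1% of all genes were, and those splits were 11 and 2 and 8 and 6. The medians of the 42 genes in these comparisons were 0.08, 0.02 and 0.15. On the main scale these shares lay below those of all genes, except for the lower genes in KO_dN against KO (7.14%). With deposited values, 25% of 44 secretory genes were higher in KO_FL than in KO_dN, where 14.5% of all genes were (17% of 47 against 14.1% with TPM), and 11.4% were higher in KO_FL than in KO, where 10.3% were. KO/WT, KO_FL/KO and KO_dN/KO share the KO libraries, so their values are set side by side and not related to each other.

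**Figure D2:**
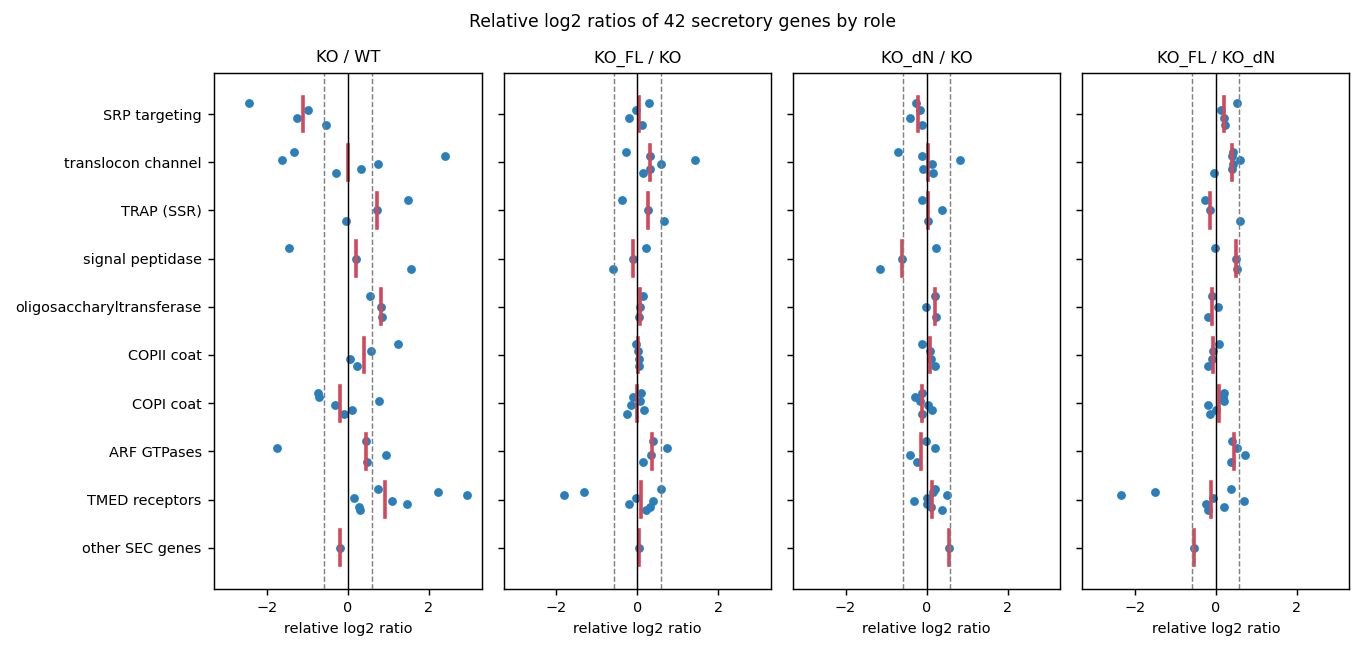
Relative log2 ratio (horizontal axis) of each of the 42 genes in 4 comparisons, with genes in rows by role, a red bar at the median of the role and dashed lines at a 1.5-fold difference. In KO / WT the SRP genes lie left of 0 and the oligosaccharyltransferase and TMED genes right of it, while in the other panels most genes lie between the dashed lines.

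The 4 SRP subunits measured all stood lower in KO than in WT on the relative scale, 3 of them past 1.5-fold. SRP68 (ENSDARG00000020820), which with SRP72 forms the large protein dimer of the particle, stood at 152 FPKM in WT, against 4.68 in KO, 7.23 in KO_FL and 2.27 in KO_dN. This was the lowest KO/WT ratio among the 42 genes (-2.44), and KO_FL stayed close to KO (0.28). SRP72 had 39.7, 3.38, 4.08 and 1.74 FPKM, with a KO/WT ratio of -0.98. SRP9, which binds the Alu domain of the SRP RNA and takes part in pausing elongation, had 27.1, 1.67, 1.68 and 0.64 FPKM and a ratio of -1.26. SRP19, which helps to assemble the particle, was the weakest, with 8.24, 0.77, 1.11 and 0.38 FPKM and a ratio of -0.55. WT was the highest group for each of these genes, and the other groups lay close together.

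The dimer partners also differed inside each group. SRP68 had 3.84 times the FPKM of SRP72 in WT, 1.38 times in KO, 1.77 times in KO_FL and 1.30 times in KO_dN. These ratios within a group are free of the scaling. The SRP genes gave no count past 1.5-fold in the comparisons of the mutant groups, where their ratios ran from -0.20 to 0.28 (KO_FL/KO), -0.40 to -0.12 (KO_dN/KO) and 0.14 to 0.53 (KO_FL/KO_dN).

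The 2 small subunits of the SEC61 channel went opposite ways. SEC61B (ENSDARG00000076568), the beta subunit, stood at 22.8 FPKM in WT, against 25.1 in KO, 38.4 in KO_FL and 14.0 in KO_dN, with a KO/WT ratio of 2.39. It was 1 of 3 among the 42 genes, with TMED8 and TMED10, whose FPKM as deposited was higher in KO than in WT, as it was for 6.78% of all 6356 genes. SEC61G (ENSDARG00000018637), the gamma subunit, stood at 70.0 FPKM in WT, against 3.73 in KO, 13.9 in KO_FL and 4.31 in KO_dN, with a KO/WT ratio of -1.63. SEC61B thus had 0.33 times the FPKM of SEC61G in WT and 6.73 times in KO, 2.76 times in KO_FL and 3.25 times in KO_dN. SEC61G also had the highest ratio of the 42 genes in KO_FL/KO (1.43) and in KO_dN/KO (0.83), and stood 0.59 higher in KO_FL than in KO_dN. Its scaled FPKM was 20.6 in WT and 5.11, 15.4 and 9.66 in KO, KO_FL and KO_dN, and the injected embryos of both kinds lay between KO and WT.

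The pore itself is the alpha subunit, for which 2 genes share the symbol SEC61A1. ENSDARG00000021669 stood at 14.4 FPKM in WT, against 4.82, 9.28 and 3.20 in KO, KO_FL and KO_dN (KO/WT 0.73, KO_FL/KO 0.57). ENSDARG00000005675 was lower in every group, with 8.62, 2.09, 3.43 and 1.15 FPKM (0.32 in both comparisons). The sources used here do not say how reads shared by such close copies were divided, so the split between the pair is uncertain.

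SEC62 and SEC63 join the channel for proteins that enter the ER after or apart from SRP delivery. SEC62 (ENSDARG00000019951) had the highest WT level of all 42 genes, 242 FPKM, against 17.5 in KO, 17.6 in KO_FL and 6.23 in KO_dN. Its ratios were -1.34 in KO/WT, -0.28 in KO_FL/KO and -0.71 in KO_dN/KO, so KO_dN stood lowest. SEC63, which recruits the ER chaperone BiP, was far weaker, with 8.95, 1.16, 1.64 and 0.81 FPKM and a KO/WT ratio of -0.30. SEC62 exceeded SEC63 by 27.0 times in WT, 15.2 times in KO, 10.7 times in KO_FL and 7.65 times in KO_dN.

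**Figure D3:**
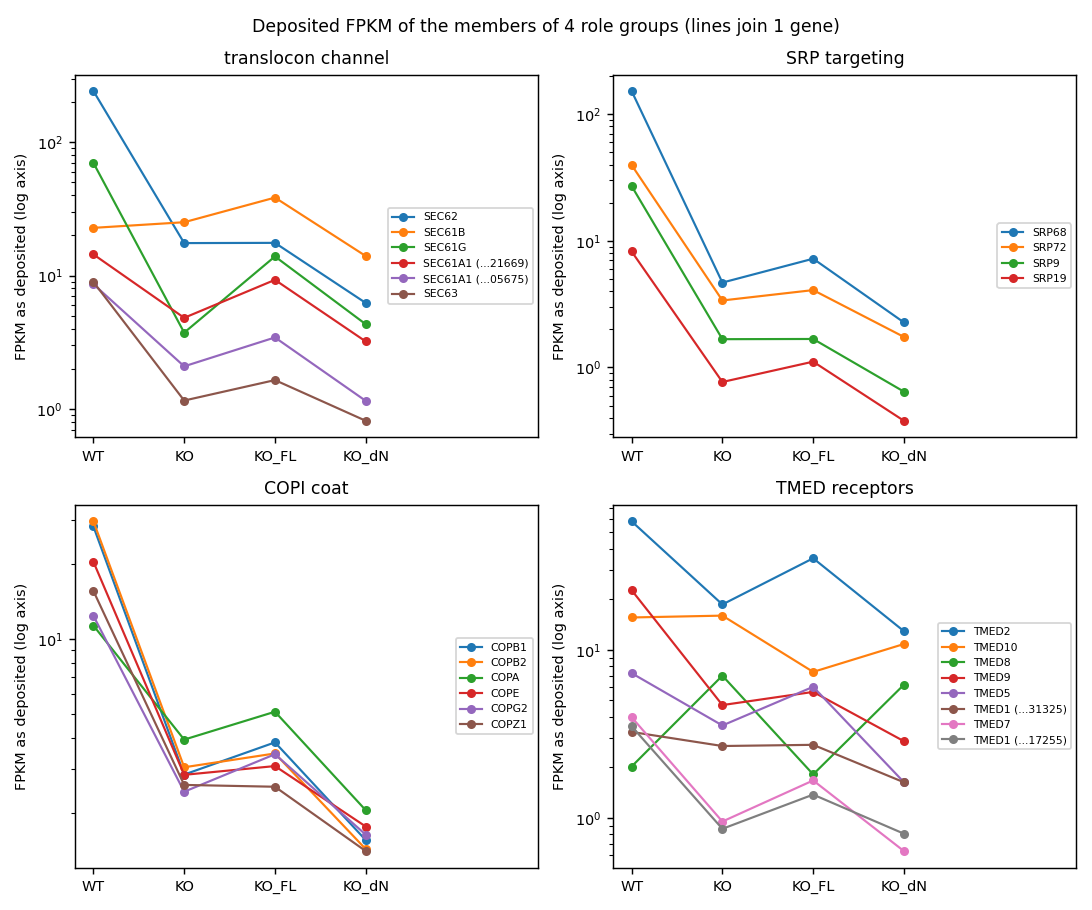
Deposited FPKM (vertical log axis) of the translocon channel, SRP, COPI and TMED genes in the 4 groups, with 1 line per gene joining its values. SEC61B and SEC61G cross between WT and KO, the SRP lines keep their order, the COPI lines close up outside WT, and TMED8 and TMED10 dip at KO_FL, where the other TMED genes do not.

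The TRAP genes stood level or higher in KO. SSR2, the beta subunit, had 13.5 FPKM in WT, against 8.14 in KO, 7.58 in KO_FL and 4.52 in KO_dN, with a KO/WT ratio of 1.48. SSR4, the delta subunit, had 6.87, 2.42, 3.75 and 2.02 FPKM and a ratio of 0.70. For both, WT had the lowest scaled value of the 4 groups. SSR3, the gamma subunit, behaved otherwise: it had 5.13, 0.81, 2.07 and 0.51 FPKM, a KO/WT ratio of -0.06 (0.18 with deposited values), and ratios of 0.65 in KO_FL/KO and 0.59 in KO_FL/KO_dN, so KO_FL was its highest group after scaling.

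Signal peptidase subunits did not move together. SPCS2, an accessory subunit, came after SEC62 and SRP68 in WT with 97.5 FPKM, against 6.19 in KO, 9.07 in KO_FL and 4.43 in KO_dN (KO/WT -1.46). SPCS3, whose yeast counterpart is needed for cleavage, had 2.80, 2.68, 1.86 and 0.48 FPKM, with a KO/WT ratio of 1.55 and the lowest KO_dN/KO ratio of the 42 genes (-1.14). SEC11A, the catalytic subunit, had 24.3, 5.23, 5.95 and 1.89 FPKM and ratios of 0.19 in KO/WT (-0.08 with deposited values) and -0.62 in KO_dN/KO. SPCS2 exceeded SPCS3 by 34.8 times in WT and by 2.31, 4.88 and 9.19 times in KO, KO_FL and KO_dN. SPCS1, the smallest accessory subunit, stayed below the minimum, with 6.43 FPKM in WT, against 0.27 in KO, 0.12 in KO_FL and a listed 0 in KO_dN.

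The 3 oligosaccharyltransferase subunits picked by the rule stood higher in KO than in WT relative to other genes, and hardly differed among the mutant groups. RPN1 (ribophorin I) had 22.1 FPKM in WT, against 6.26 in KO, 8.55 in KO_FL and 4.45 in KO_dN. DDOST, another subunit of the same complex, had 8.61, 3.25, 4.23 and 1.92 FPKM, and RPN2 (ribophorin II) had 1.99, 1.08, 1.41 and 0.83. Their KO/WT ratios were 0.54, 0.81 and 0.84, so 2 of 3 passed 1.5-fold. RPN2, at 0.58 scaled FPKM in WT, passed the minimum through the mutant groups. In the other comparisons the ratios of the 3 subunits ran from -0.20 to 0.23. RPN1 exceeded DDOST by 1.93 to 2.57 times in all groups. It exceeded RPN2 by 11.1 times in WT and by 5.34 to 6.07 times in the other groups.

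Few COPII genes could be followed. SEC31B, an outer coat subunit, had 7.21 FPKM in WT, against 3.92 in KO, 4.70 in KO_FL and 2.13 in KO_dN, with a KO/WT ratio of 1.22. Its paralogue SEC31A had 4.60, 0.82, 1.05 and 0.55 FPKM and a ratio of 0.04 (0.32 with deposited values), and stood at 0.64 times SEC31B in WT and 0.21 to 0.26 times in the other groups. SEC23IP, which binds the inner coat subunit SEC23, had a ratio of 0.56, and SEC24B, a cargo-binding subunit, 0.22. In the comparisons of the mutant groups all 4 ratios lay between -0.19 and 0.22. SEC23B, SEC24D and the GTPase gene sar1ab stayed below the minimum, with at most 1.80 FPKM in any group.

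The 6 COPI subunits picked by the rule were closer to each other in the mutant groups than in WT. In WT they ran from 11.3 FPKM (COPA) to 29.6 (COPB2), a span of 2.62 times. In KO they ran from 2.44 (COPG2) to 3.94 (COPA), a span of 1.62 times, and the span was 2.00 times in KO_FL and 1.46 times in KO_dN. COPB1 and COPB2, the beta and beta' subunits, had KO/WT ratios of -0.73 and -0.72 and FPKM values within 0.93 to 1.11 times of each other in every group. COPA, the alpha subunit, went the other way with a ratio of 0.76, so that COPB1 had 2.50 times the FPKM of COPA in WT and 0.72 to 0.76 times in the other groups. COPE, COPG2 and COPZ1 had ratios of -0.32, 0.09 and -0.10. Among the mutant groups all 6 subunits stayed between -0.27 and 0.21.

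ARF GTPases recruit coats to membranes. ARF5 (ENSDARG00000070472) stood at 51.3 FPKM in WT, against 2.31 in KO, 5.36 in KO_FL and 1.66 in KO_dN, with ratios of -1.76 in KO/WT and 0.74 in KO_FL/KO. arf2b had 31.6, 8.14, 13.3 and 4.80 FPKM, arf2a 13.7, 5.47, 8.76 and 2.38, and arf1 9.18, 2.55, 3.59 and 1.22. Their KO/WT ratios were 0.43, 0.95 and 0.47. ARF5 therefore went from 1.63 times arf2b in WT to 0.28 times in KO, 0.40 times in KO_FL and 0.35 times in KO_dN. All 4 stood higher in KO_FL than in KO_dN, by 0.38 to 0.72, and only arf2a passed 1.5-fold there. These proteins are very alike, so the division of reads among their genes is uncertain. arf6b, arf4a and 2 genes with the symbol ARF3 stayed below the minimum, and 1 of the latter was listed at 0 in all groups.

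Of the 8 genes with a TMED symbol that passed the minimum, 5 were higher in KO than in WT and none lower, where 26.4% and 27% of all genes were. TRAP and oligosaccharyltransferase, with 3 genes each, had a like share (2 of 3). Of the 5 higher TMED genes, TMED8 and TMED1 (ENSDARG00000031325) were below 1 scaled FPKM in WT and passed the minimum through the mutant groups. TMED2, of the beta subfamily, was the strongest, with 58.1 FPKM in WT, against 18.6 in KO, 35.0 in KO_FL and 12.9 in KO_dN (KO/WT 0.74, KO_FL/KO 0.59). TMED5 had 7.26, 3.55, 6.03 and 1.63 FPKM, with ratios of 1.09 in KO/WT and 0.69 in KO_FL/KO_dN. For TMED2 and TMED5, KO_FL was the highest group after scaling. Of 2 genes with the symbol TMED1, ENSDARG00000031325 had 3.25, 2.68, 2.72 and 1.63 FPKM and a KO/WT ratio of 1.45, and ENSDARG00000017255 had 3.51, 0.86, 1.38 and 0.81 FPKM and a ratio of 0.29. TMED7 and TMED9 were near level, with KO/WT ratios of 0.28 and 0.15 (-0.11 for TMED9 with deposited values), and TMED9 stood at 6.23 to 6.66 scaled FPKM in all groups. Which TMED genes passed 1.5-fold depended on the scaling. With deposited values TMED7 (0.59) and TMED1 ENSDARG00000017255 (0.67) passed and TMED2 (0.35) did not. That made 6 higher, where 27.6% of all genes were.

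TMED10 and TMED8 differed from the other TMED genes in KO_FL. TMED10 (ENSDARG00000041391), which pairs with TMED2 in the p24 complex, stood at 15.6 FPKM in WT, against 16.0 in KO, 7.39 in KO_FL and 10.8 in KO_dN. After scaling these were 4.58, 21.9, 8.20 and 24.2, so WT and KO_FL were low and KO and KO_dN high. Its ratios were 2.23 in KO/WT, -1.31 in KO_FL/KO, 0.17 in KO_dN/KO (-0.16 with deposited values) and -1.49 in KO_FL/KO_dN. TMED8 (ENSDARG00000052390), placed here by its symbol alone, stood at 2.02 FPKM in WT, against 7.02 in KO, 1.82 in KO_FL and 6.20 in KO_dN, or 0.60, 9.61, 2.01 and 13.9 after scaling. It had the highest KO/WT ratio (2.92) and the lowest KO_FL/KO and KO_FL/KO_dN ratios (-1.82 and -2.34) of the 42 genes. Measured against TMED9 inside each group, TMED10 had 0.69 times its FPKM in WT, against 3.40 in KO, 1.32 in KO_FL and 3.78 in KO_dN, and TMED8 had 0.09, 1.5, 0.32 and 2.17. TMED10 stood at 0.27 times TMED2 in WT and 0.21 times in KO_FL, against 0.86 in KO and 0.84 in KO_dN. TMED3, TMED4 and tmed6 stayed below the minimum, with at most 0.67 FPKM in any group.

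Among the remaining SEC genes, the vesicle SNARE gene SEC22B (ENSDARG00000030108) alone passed the minimum, with 4.62 FPKM in WT, against 0.58 in KO, 0.75 in KO_FL and 0.72 in KO_dN and a KO/WT ratio of -0.21 (0.11 with deposited values). SEC22A, SEC22C and the lipid-binding protein gene sec14l8 did not pass it, with at most 1.89 FPKM in any group.

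The KO/WT and KO_FL/KO_dN comparisons share no libraries, so their ratios were set against each other. Across the 42 genes Pearson's r was -0.46, and across all 6356 genes it was -0.29. Without TMED8 and TMED10, chosen after their values were seen, it was -0.13 across the other genes. All 4 groups entered the scaling, and the genes of 1 library are not independent, so these are descriptions. Correlation of log2 scaled levels across the 42 genes was 0.95 between KO and KO_dN and 0.89 between KO and KO_FL, while WT correlated with KO_FL at 0.68, with KO at 0.57 and with KO_dN at 0.52. Across all 6356 genes KO correlated with KO_dN and KO_FL at 0.91 alike, and WT correlated with KO_FL at 0.81, with KO at 0.73 and with KO_dN at 0.72. By size of difference the order of the groups was another for the 42 genes. Their median absolute relative log2 ratio to WT was 0.81 in KO_FL, 0.73 in KO and 0.77 in KO_dN, against 0.57, 0.64 and 0.68 for all genes.

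**Figure D4:**
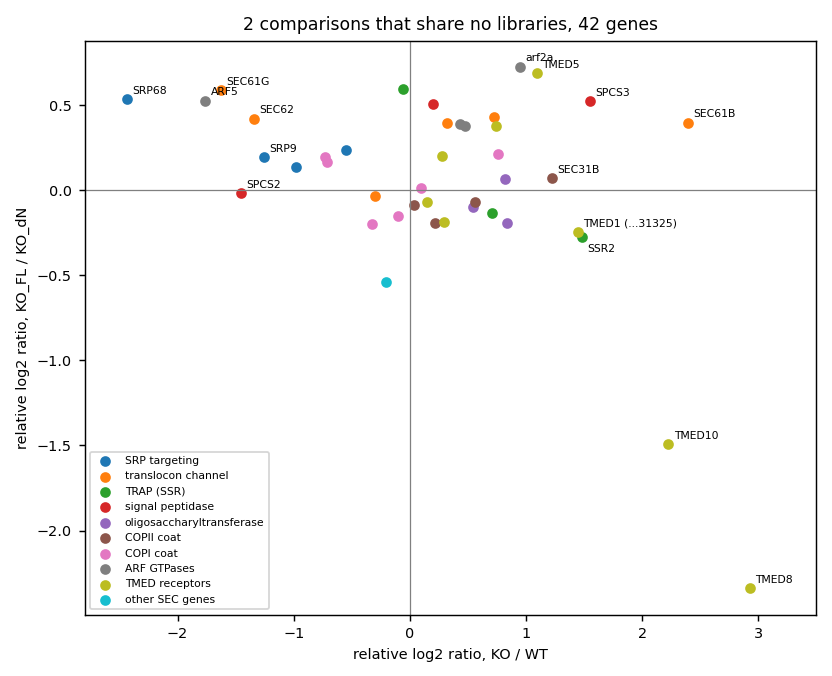
Relative log2 ratio in KO_FL / KO_dN (vertical axis) against that in KO / WT (horizontal axis) for the 42 genes, coloured by role, with the genes farthest from 0 named. TMED8 and TMED10 stand alone at the lower right, and SRP68, ARF5, SEC61G and SEC62 at the upper left.

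Other genes of the early secretory pathway were read from a list of 97 symbols outside the rule, of which 70 identifiers were measured and 44 passed the minimum. Of these, 10 were higher and 8 lower in KO than in WT (22.7% and 18.2%, below the 26.4% and 27% of all genes), with a median of 0.00. The highest were kdelr2a, a receptor that returns ER proteins from the Golgi, at 8.88 FPKM in WT and 11.1 in KO (2.36), and the ER stress sensor gene ern1 at 2.48 and 4.30 (2.18). At 0.73 scaled FPKM in WT, ern1 passed the minimum through the mutant groups. The lowest were GOLGA2, a Golgi matrix protein, at 473 and 19.8 (-2.13), and XBP1, a transcription factor of the ER stress response, at 43.6 and 1.65 (-1.89).

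In KO_FL against KO, 1 gene of that list was higher and 2 lower (2.27% and 4.55%, where 11.6% and 9.64% of all genes were). The disulfide isomerase gene PDIA6 stood at 14.6 against 5.22 FPKM (1.08), and PDIA4, of the same enzyme family, at 2.69 against 5.05 (-0.99), followed by the Golgi SNARE gene GOSR1 (-0.78). TRAM2, which takes part in translocation, had the next highest ratio (0.53). In KO_dN against KO, 3 were higher and 4 lower (6.82% and 9.09%, where 7.99% and 6.51% of all genes were). They included rab1aa, a GTPase of ER to Golgi traffic, at 2.86 against 2.08 FPKM (0.97), KRTCAP2, an oligosaccharyltransferase subunit, at 0.77 against 0.54 (0.67), ern1 at 1.08 against 4.30 (-0.98) and srprb, the beta subunit of the SRP receptor, at 3.48 against 10.8 (-0.81). In KO_FL against KO_dN, 4 were higher and 3 lower (9.09% and 6.82%, where 12% and 11.1% of all genes were), with PDIA6 at 0.74, the oligosaccharyltransferase subunit MAGT1 at 0.70, rab1aa at -0.92 and ARFGAP3, which switches ARF proteins off, at -1.10. In KO/WT srprb, at 16.0 FPKM in WT and 10.8 in KO, had a ratio of 1.65. The alpha subunit of the receptor, SRPRA, at 11.9 and 1.47 FPKM, had a ratio of -0.39, and the SRP subunits were all below 0.

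Cell type markers were read in the same files. The 5 blastula markers, nanog and pou5f3 among them, summed to 84.9 scaled FPKM in WT and 159, 143 and 154 in KO, KO_FL and KO_dN, with 2 higher and none lower in KO than in WT. Their sum was thus lowest in WT, with nanog the largest part of it in each group. DDX4, another of the 5, went the other way and was highest in WT after scaling. WT was also lowest for 23 of the 42 secretory genes (54.8%), where it was for 30.6% of all genes. None of the 5 was listed at 0, and 7 measured markers of later tissues summed to at most 0.76 scaled FPKM. Enveloping layer markers (13 measured) summed to 100 scaled FPKM in WT, against 54.0 in KO, 99.1 in KO_FL and 50.0 in KO_dN. The keratin genes cyt1, cyt1l and krt17 were listed at 0 in KO and KO_dN, cyt1l also in WT. They had at most 0.26 FPKM in any group, so a 0 there says little. Of 9 at the minimum level, 1 was higher and 5 lower in KO than in WT, where 26.4% and 27% of all genes were. KO_FL exceeded KO by 1.5-fold in 5 of the 9 and KO exceeded KO_FL in 1, where 11.6% and 9.64% of all genes did so. Yolk syncytial layer markers (11 measured) summed to 129, 117, 168 and 98.3 in the same order. MTTP and 1 of 2 afp4 genes were listed at 0 in KO and KO_dN, and had at most 0.84 FPKM in any group. Of 5 at the minimum level, 1 was higher and 3 lower in KO than in WT, and 3 were higher and none lower in KO_FL than in KO. In that list ctsla had the highest FPKM in each group, 375 in WT and 79.6 in KO as deposited. After scaling ctsla was near level between WT and KO, and it made up most of the list sum in each group. The sums of both lists were lower in KO and KO_dN, where TMED8 and TMED10 were high and SEC61G low, than in WT and KO_FL. The part of these cells in the results above was not tested.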

How the data were processed

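Ribosomes were halted with cycloheximide and unprotected RNA was removed with RNase I, per the labels' protocols; fragments of footprint size, freed of ribosomal RNA, became small RNA libraries. Trimmomatic 0.36, cutadapt 1.13, Cufflinks 2.2.1, TopHat2 2.1.1, Bowtie and the build Zv9 are named, without settings, per the submitters' processing notes. The authors deposited FPKM, 1 value per gene and group from both replicates per the series design text, read here as their mean. Of 33737 identifiers, 101 on several WT lines and 3 absent from WT were left out. Symbols matched 21939 identifiers. No coordinates or sequences are given.

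Values were scaled, filtered and compared as described above with Python 3.11.15, pandas 2.3.3 and numpy 2.4.6, and the calculation was tested on simulated data. Ratios were taken after scaling because a fixed pseudocount on groups of unequal level ties the ratio to a gene's level. Genes were named by a rule: in each role the strongest and the outermost members of each comparison, the 5 highest and 5 lowest of all members, their paralogues, and the outermost 2 of the pathway list. Other members named, and the gene pairs for ratios inside a group, were chosen after their values were seen. The members, lists and tests were chosen with earlier results of these data known. Alternatives were other scalings, pseudocounts of 0.1 and 5, other minimum levels and summed identifiers. One gene with a SEC symbol is not reported here.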

Additional observations from a re-analysis of the deposited data

How the results depend on the processing

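No single value counted as higher or lower changed sign under any of the 9 alternatives run, and of 41 such values 41 kept their side of 1.5-fold with TPM, 36 with deposited values centred on their median and 20 with a pseudocount of 5. The results below were those that moved; the cause was not tested. For KO/WT the median of the secretory genes, 0.29, was 0.41 with a pseudocount of 0.1, 0.12 with a pseudocount of 5, 0.077 with no minimum level, 0.17 with the minimum applied to the mutant groups alone, and -0.43 with a minimum of 10, which left 8 genes. With a pseudocount of 5 the counts were 7 higher (KO/WT), 1 higher (KO_FL/KO), 0 higher and 1 lower (KO_dN/KO) and 0 higher (KO_FL/KO_dN). In the same order, the shares of all genes at that setting were 12.3%, 6.14%, 3.49% and 2.34%, and 5.95%. At a minimum of 10 the counts among 8 genes were 3 higher and 4 lower (KO/WT), 1 and 1 (KO_FL/KO), 1 lower (KO_dN/KO), and 0 and 1 (KO_FL/KO_dN). The shares of all genes there were 35.4% and 36.2%, 21.2% and 15.4%, 11.3%, and 18.8% and 20.1%. With deposited values KO_dN/KO had a median of -0.13 and 0 higher (4.01% of all genes), and KO_FL/KO_dN a median of 0.29 and 11 higher (14.5% of all genes). With TPM, KO_FL/KO had 5 lower, KO_dN/KO 3 higher, and KO_FL/KO_dN 8 higher and 6 lower. The shares of all genes with TPM were 12.2%, 10.7%, and 14.1% and 14.8%. With a pseudocount of 0.1, KO_dN/KO had 3 higher and KO_FL/KO_dN 8, where 13.6% and 17.7% of all genes were. With no minimum KO_FL/KO_dN had 4 lower, where 3.66% of all genes were.

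By role, the SRP median stayed below 0 and the TMED and oligosaccharyltransferase medians above 0 in KO/WT wherever they had a value. The signal peptidase median, 0.19, turned to -0.49 with TPM and with no minimum level, to -0.34 with deposited values and, for the 1 gene left, to -1.43 at a minimum of 10. The translocon channel median, 0.01, lay on either side of 0 and was -1.32 for the 3 genes at that minimum. The value of the remaining SEC genes, -0.21 for SEC22B alone, turned to 0.11 with deposited values and to a median of 0.49 with TPM, where 2 genes passed. Leaving out replicates was not run, because each group has 1 value. No paired analysis was possible because the files hold no separate replicates. By the estimate of relative depth, the fewest reads at an equal scaled level stood behind KO_dN.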
